A study of Mus musculus with 24 samples.

Results

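Fertilisation of eggs from Nlrp14 knockout mice was examined by setting 3 libraries of knockout late pronuclear (PN5) zygotes against 3 libraries of knockout metaphase II (MII) eggs. These 6 libraries were taken by their labels, from a series of 24 RNA-seq libraries that covers wild-type and Nlrp14 knockout mice at 4 stages. Each library was made from 5 eggs or zygotes, and the 3 libraries of a group are labelled biological replicates. Both groups bear the knockout label and differ by stage, and the eggs and zygotes are separate pools. The labels do not say whether the zygotes received an intact paternal Nlrp14 allele. The 3 MII and 3 PN5 libraries of wild-type mice served for comparison. Not given in the sources used here are the extent of the deleted sequence, the genotype of the sires, the strain and the hours between the stages.

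A mouse egg waits at metaphase of the second meiotic division without transcription. Sperm entry ends that arrest, part of the stored maternal mRNA is degraded, and other stored mRNAs gain longer poly(A) tails and are translated. A first, weak wave of transcription from both pronuclei, minor genome activation, starts in the zygote before the main wave of the 2-cell embryo. NLRP14 is an oocyte protein of the NLR family that carries a pyrin domain.

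All values are FPKM (fragments per kilobase of transcript, scaled to library depth), so each is a share of its library and not an amount of RNA per egg. Per-library values are given for replicates 1, 2 and 3 in that order. A change is the difference of log2(FPKM + 1), PN5 minus MII, with its standard error (SE), and on this scale low genes show less than their true fold. A gene was called higher or lower where limma gave it an adjusted p (Benjamini-Hochberg) under 0.05, and "rose" and "fell" are used of called genes only. All p-values rest on the spread between pools of 5, which may be partly technical.

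Nlrp14 was measured first, as a check of the labels. It stood at 14.6, 22.9 and 21.3 FPKM at MII and 6.17, 8.48 and 5.75 FPKM at PN5 in the knockout, against a wild-type mean of 391 FPKM at MII and 210 FPKM at PN5. Every knockout library lay far below the wild-type libraries of its stage. What remained of the transcript in the knockout fell after fertilisation (log2 -1.39, SE 0.23, adjusted p = 0.0036). The corresponding wild-type change was -0.90, and the difference between the changes, -0.49, did not pass (adjusted p = 0.24).

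The libraries held the transcripts that define the egg. Dppa3, which guards maternal DNA methylation in the zygote, stood at 6665, 12084 and 9404 FPKM at MII and 6189, 6218 and 6562 FPKM at PN5, and Btg4, the adaptor that brings deadenylase to maternal mRNA, at 3126, 3672 and 3527 FPKM at MII and 2893, 2854 and 2964 FPKM at PN5. The zona pellucida gene Zp3 stood at 52.9, 55.8 and 43 FPKM at MII and 65.2, 69.4 and 48.9 FPKM at PN5. Depth implied by the values was 10.6 to 11.2 M fragments at MII and 9.71 to 11.4 M at PN5. In these 6 libraries 1 fragment in a transcript of 1 kb was worth 0.0879 to 0.103 FPKM, and 3 fragments 0.264 to 0.309 FPKM, so values of that size rest on single fragments. Between 7946 and 8348 genes reached 1 FPKM in the MII libraries and 8828 to 9279 in the PN5 libraries.

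Composition also moved with the stage. The slope of a gene's level, taken relative to its mean over the 6 libraries, on its GC content, per 10 percentage points, was -0.08, -0.17 and -0.24 log2 units in the MII libraries and 0.18, 0.21 and 0.10 in the PN5 libraries. The slope on log2 exon length was 0.02, -0.1 and -0.05 at MII and 0.04, 0.03 and 0.06 at PN5. On both measures MII replicate 1 lay nearest to the zygotes. Transcripts encoded by mitochondria made up 7.85 to 8.65% of summed FPKM at MII and 8.03 to 10.1% at PN5. Among markers of granulosa and cumulus cells, 12 to 19 of 24 stood at 0 in the MII libraries and 16 to 20 in the PN5 libraries, and their summed level was 217 to 234 and 56 to 76.5 FPKM. Most of that sum came from 1 gene. Serpine2, a secreted protease inhibitor, fell from 205, 196 and 205 FPKM at MII to 60.1, 60.3 and 41 FPKM at PN5 (log2 -1.91, SE 0.18, adjusted p = 0.00065), and wild type fell likewise, from 163 to 62.9 FPKM (log2 -1.43, adjusted p = 0.016). In bulk libraries fewer cells of a type and less RNA per cell cannot be told apart, and the part of these shifts in the results was not tested.

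Of 8986 genes tested in the knockout, 2951 were called (32.8%), 2018 of them higher (22.5%) and 933 lower (10.4%). The median change of all tested genes was 0.19. Median-of-ratios scaling, which sets the typical gene of each library to the same level, moved that median to -0.05 and gave 1174 higher (13.3%) and 1561 lower (17.7%) among 8838 tested genes (30.9% called). Removing each library's trend with transcript length, or with length and GC content, gave 1356 higher (15.1%) and 1406 lower (15.6%), or 1071 higher (11.9%) and 1242 lower (13.8%), which is 30.7 and 25.7% called in all. On all 4 scales 744 genes were called higher (8.28%) and 788 lower (8.77%), together 17% of tested genes. Called the same way as deposited and after median-of-ratios scaling were 1174 higher (13.1%) and 933 lower (10.4%). The number called on the deposited scale was 4398 without MII replicate 1, 1993 without MII replicate 2, and 1213 to 1419 without MII replicate 3 or any one of the PN5 libraries.

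**Figure D1:**
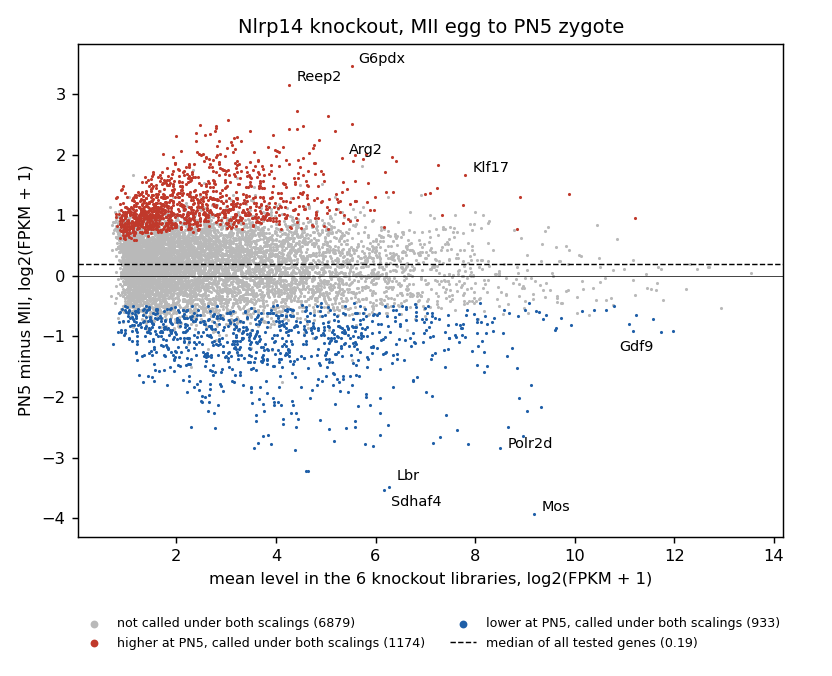
Change from MII to PN5 in the knockout (vertical axis, log2 difference of FPKM + 1) against the mean level of each of the 8986 tested genes (horizontal axis, log2 of mean FPKM + 1). Each point is 1 gene. Red and blue mark the 1174 genes called higher and the 933 called lower both as deposited and after median-of-ratios scaling, grey the other 6879, and the dashed line the median of 0.19. Mos lies lowest and G6pdx highest, and the blue points reach to higher levels than most red ones.

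The largest fall was that of a transcript of the egg's meiotic arrest. Mos, the kinase that holds the egg at metaphase through MAP kinase signalling, stood at 915, 1251 and 1112 FPKM at MII and 79, 41.5 and 102 FPKM at PN5. The highest PN5 library lay far below the lowest MII library. The mean went from 1093 ± 169 to 74.2 ± 30.6 FPKM (SD, n = 3), which left 6.79% of the MII level (log2 -3.94, SE 0.30, adjusted p = 0.00045), and wild type fell too, from 971 to 25 FPKM (log2 -5.28, adjusted p = 0.00046). Mos is a single-exon gene of 1449 bases on chromosome 4 (GRCm38, chr4:3870657-3872105, - strand). Lbr, the lamin B receptor of the inner nuclear membrane (chr1:181815335-181843046, - strand), stood at 125, 151 and 146 FPKM at MII and 14.2, 7.9 and 13.7 FPKM at PN5 (log2 -3.49, SE 0.23, adjusted p = 0.00033), and 8.49% of its mean was left. Sumo2, a small protein modifier, stood at 215, 325 and 274 FPKM at MII and 42.3, 41.4 and 40.9 FPKM at PN5, with the PN5 libraries almost equal (log2 -2.66, SE 0.18, adjusted p = 0.00033).

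Sdhaf4, an assembly factor of succinate dehydrogenase, fell from 85.5, 173 and 132 FPKM at MII to 10.3, 18.1 and 4.81 FPKM at PN5 (log2 -3.54, SE 0.42, adjusted p = 0.0013). Psma5, an alpha subunit of the core proteasome, fell from 15.2, 25.8 and 19.6 FPKM at MII to 3.02, 4.42 and 0.333 FPKM at PN5 (log2 -2.76, SE 0.47, adjusted p = 0.0046). PN5 replicate 3 was the lowest library for both. Polr2d, a subunit of RNA polymerase II, fell from 397, 880 and 648 FPKM at MII to 98, 82.9 and 71.4 FPKM at PN5 (log2 -2.85, SE 0.28, adjusted p = 0.00068). Ube2t, the ubiquitin-conjugating enzyme of the Fanconi anaemia pathway, changed by -3.23, Sf3b5 of the splicing factor SF3B by -2.84, and Slc25a17, a peroxisomal carrier, by -2.63. The remaining largest falls were histone genes. H3f3a, which encodes a replacement histone H3, stood at 60.3, 126 and 101 FPKM at MII and 10.9, 18.7 and 9.43 FPKM at PN5 (log2 -2.78, SE 0.32, adjusted p = 0.0012), and Hist1h2bc and Hist1h2bg, which encode histone H2B, changed by -3.23 and -2.77. Histone genes and others with near-identical copies are uncertain, because the rule for dividing reads among copies is not given in the sources used here. The rule for naming these 12 genes required MII and PN5 libraries that do not overlap.

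**Figure D2:**
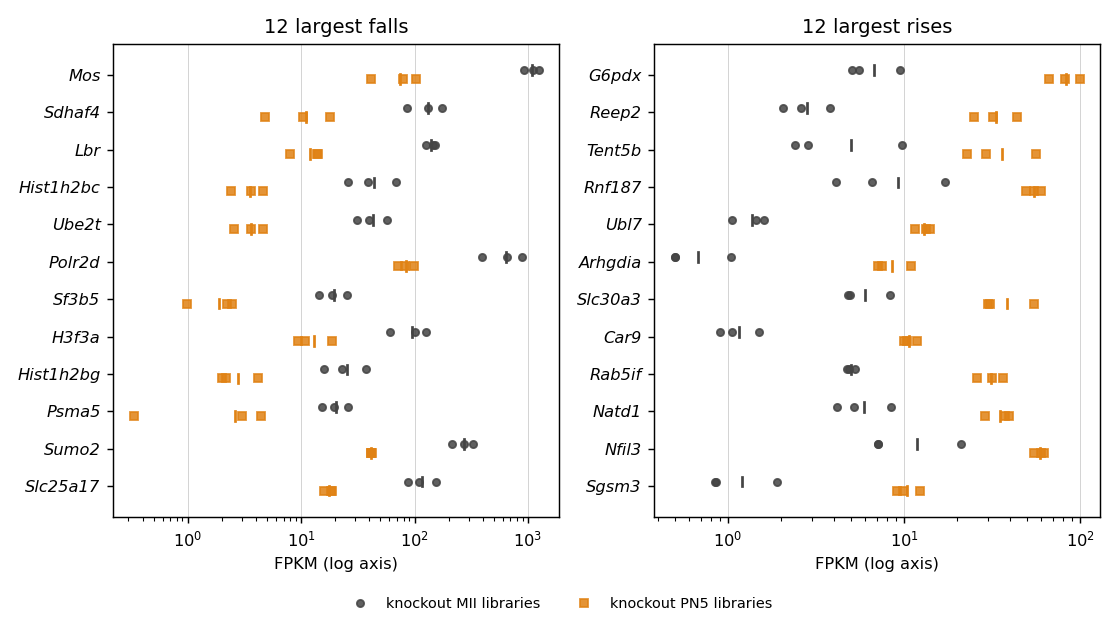
FPKM of the 12 genes with the largest falls (left) and the 12 with the largest rises (right) in each knockout library, on a log axis. Circles are the 3 MII libraries, squares the 3 PN5 libraries and vertical bars the group means. Separate groups were required of all 24 genes, and Mos goes from 1093 to 74.2 FPKM.

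The ends of the annotated 3' untranslated regions were read for these transcripts, since the cytoplasmic polyadenylation element near the 3' end takes part in setting tail length in eggs. The element was searched on the transcript strand as TTTTAT or TTTTAAT in the last 100 bases of the longest coding transcript of each gene (GENCODE M21, GRCm38), for genes with a 3' UTR at least that long. It was found in 4 of the 12 largest falls and in 0 of the 12 largest rises. The 4 matches are shown 5' to 3' with the element in capitals and up to 12 bases before it.
Lbr: ggtgcaagttgtTTTTAATttgatgtttgg
Ube2t: aaggatagtttgTTTTATttatcttgtaca
Psma5: gtgtgtgtgtttTTTTATgaagtctgtaca
Slc25a17: tatttcgaattgTTTTATattacaaaaaaa
The element starts 66, 70, 53 and 100 bases from the annotated end in Lbr, Ube2t, Psma5 and Slc25a17. Across the genes called on all 4 scales it was present in 9.36% of 566 higher genes and 29.0% of 541 lower genes with such a window, beside 23.0% of 6457 tested genes. The same windows differed in base composition, with a median A + T of 59.5% in the higher, 70% in the lower and 66% in all tested genes, and the part of composition was not tested. Wild type gave 9.34% of 396 higher and 41.6% of 274 lower genes, beside 23.3% of 6595. A match is a run of letters and not a measured element, and which 3' end the eggs use was not measured.

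The largest rise was that of a metabolic enzyme. G6pdx, which encodes glucose-6-phosphate dehydrogenase at the entry of the pentose phosphate pathway (chrX:74409483-74429194, - strand), stood at 9.55, 5.07 and 5.59 FPKM at MII and 81.6, 100 and 66.8 FPKM at PN5. Its mean went from 6.74 ± 2.45 to 82.9 ± 16.7 FPKM (SD, n = 3), a ratio of 12.3 (log2 3.46, SE 0.25, adjusted p = 0.00033), and in wild type from 14.3 to 71.3 FPKM (log2 2.10, adjusted p = 0.012). Car9, a membrane carbonic anhydrase induced by hypoxia, stood at 0.9, 1.51 and 1.06 FPKM at MII and 9.97, 11.8 and 10.4 FPKM at PN5 (log2 2.45, SE 0.18, adjusted p = 0.00033), and the wild-type change was 2.53. In both genes the PN5 libraries lay close together beside the size of the step. Reep2, which shapes the endoplasmic reticulum, stood at 3.82, 2.6 and 2.06 FPKM at MII and 32, 43.6 and 24.9 FPKM at PN5 (log2 3.16, SE 0.26, adjusted p = 0.0005). Tent5b, of the non-canonical poly(A) polymerases, stood at 9.73, 2.42 and 2.85 FPKM at MII and 29.3, 56.2 and 22.8 FPKM at PN5 (log2 2.73, SE 0.47, adjusted p = 0.0046), and Rnf187, a ubiquitin ligase, at 17.1, 6.55 and 4.12 FPKM at MII and 54.7, 60.1 and 49.1 FPKM at PN5 (log2 2.64, SE 0.40, adjusted p = 0.0029). In Tent5b and Rnf187, MII replicate 1 was the highest MII library, well above the other MII values.

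Arhgdia changed by 2.49, Ubl7, a ubiquitin-like protein, by 2.57, and Slc30a3, a zinc transporter, by 2.47. Nfil3, a bZIP transcriptional repressor, stood at 21.2, 7.14 and 7.09 FPKM at MII and 62.7, 60.3 and 54.4 FPKM at PN5 (log2 2.40, SE 0.37, adjusted p = 0.0029). The remaining rises were Natd1 (2.42), Rab5if (2.42) and Sgsm3 (2.40), a GTPase-activating protein for Rab proteins. The 12 largest rises and 12 largest falls were called on all 4 scales, beside 17% of tested genes. They were called in all 18 other fits that tested them, which include the other scales, with a highest adjusted limma p of 0.032. Both traits follow in large part from the choice of these genes by call, size of change and separate groups in the same libraries. The mean of at least 5 FPKM required in a stricter fit left Arhgdia untested.

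Some further rises were named after their values were seen, because the transcripts were low in eggs. Nr1d1, the circadian nuclear receptor REV-ERB alpha, stood at 1.63, 2.52 and 2.38 FPKM at MII and 12.8, 15.4 and 11.5 FPKM at PN5 (log2 2.16, SE 0.20, adjusted p = 0.00061) and went on to 39.9, 53.4 and 23.5 FPKM in knockout 2-cell embryos. The wild-type mean went from 1.41 to 26.2 FPKM (log2 3.48, adjusted p = 0.00095). Nsdhl, an enzyme of cholesterol synthesis, stood at 0.693, 0.889 and 1.38 FPKM at MII and 9.41, 10.5 and 6.87 FPKM at PN5 (change 2.32), Mfsd2a, a transporter of lysophospholipids, at 2.03, 2.69 and 1.41 FPKM at MII and 12.9, 16.6 and 11.6 FPKM at PN5 (change 2.28), and Oas1f, an oligoadenylate synthetase, at 0.986, 1.79 and 1.9 FPKM at MII and 9.2, 14.1 and 9.64 FPKM at PN5 (change 2.22). In wild type these 3 genes changed by 2.22, 2.47 and 2.40. The groups did not overlap in any of the 4 genes. All 4 were called on all 4 scales, beside 17% of tested genes. Both traits follow in part from the choice of these genes by their values.

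The promoters of Car9 and Nr1d1 are shown because both genes rose from a low level in eggs. Each is the 250 bases before the annotated start, from RefSeq on GRCm38.p6, 5' to 3' on the gene's strand, Car9 at chr4:43506776-43507025 on the + strand and Nr1d1 at chr11:98775378-98775627 on the - strand. Capitals mark ACGTG or its reverse complement, the core of the hypoxia response element.
Car9: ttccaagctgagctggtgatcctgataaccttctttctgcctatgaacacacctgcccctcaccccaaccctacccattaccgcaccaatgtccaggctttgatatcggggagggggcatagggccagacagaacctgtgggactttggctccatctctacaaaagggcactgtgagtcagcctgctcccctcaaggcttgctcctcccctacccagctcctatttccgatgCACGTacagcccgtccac
Nr1d1: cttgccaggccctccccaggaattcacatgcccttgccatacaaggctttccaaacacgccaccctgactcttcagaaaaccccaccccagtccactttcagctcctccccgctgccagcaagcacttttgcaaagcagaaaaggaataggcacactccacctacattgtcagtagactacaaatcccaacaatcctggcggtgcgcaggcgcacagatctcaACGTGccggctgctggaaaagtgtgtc
Each promoter held 1 match, at 18 bases before the start in Car9 and 27 bases in Nr1d1. Over the genes called on all 4 scales that core, searched on both strands, stood in 22.8% of 492 higher and 22.8% of 464 lower promoters, beside 22.1% of 5649 tested genes and 16.6% of all 27025 promoters. The CCAAT box was in 39.8% of higher and 40.7% of lower promoters (38.5% of tested genes, 34.5% of all). The TATA box, TATAAA, was in 7.32 and 6.9% (7.06% of tested genes, 13% of all), and the GC box, GGGCGG, in 57.5 and 57.3% (57.4% of tested genes, 32.9% of all). The heat shock core GAANNTTC was in 6.71 and 4.74% (5.38% of tested genes, 6.78% of all). In these windows the higher and lower genes were within 2 percentage points of each other for each of the 5 motifs.

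**Figure D3:**
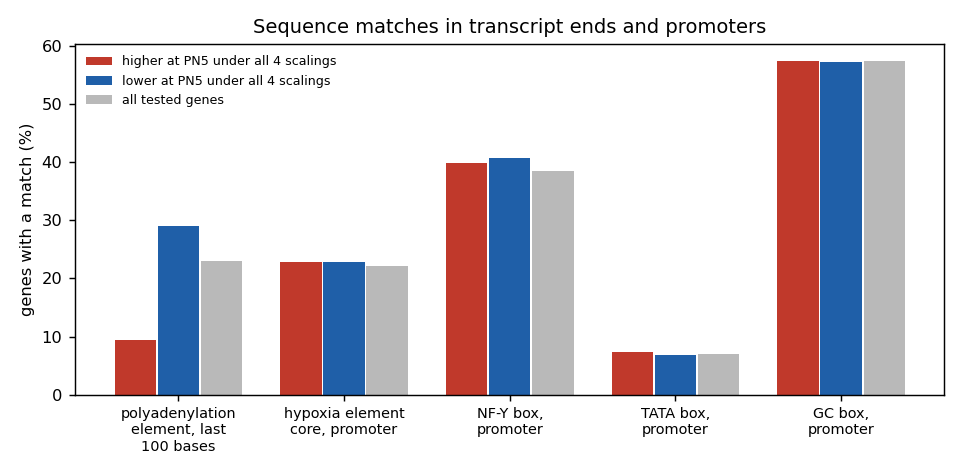
Share of genes (percent) whose promoter or 3' UTR end holds a motif, for genes called higher or lower on all 4 scales in the knockout and for all tested genes. The bars of the 4 promoter motifs drawn are near each other, while the polyadenylation element stands in 9.36% of higher and 29.0% of lower genes.

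Members of the lists are described next by role, and their counts on the deposited scale are set against 22.5% of all tested genes called higher and 10.4% called lower. Among 26 tested genes of metaphase II arrest and meiotic exit (30 listed), 7 rose and 3 fell, with a median change of 0.40. Besides Mos, Ccnb1, the cyclin of the arrested egg's CDK1, fell from 377, 282 and 419 FPKM at MII to 200, 248 and 224 FPKM at PN5 (change -0.67), and Pttg1, securin, fell from 668, 1389 and 1031 FPKM at MII to 516, 599 and 477 FPKM at PN5 (change -0.90). Fzr1, the activator that the anaphase-promoting complex uses after exit from meiosis, rose from 1.56, 0.288 and 0.513 FPKM at MII to 3.76, 3.71 and 2.57 FPKM at PN5 (log2 1.33, SE 0.27, adjusted p = 0.0083), from a level of a few fragments. Median-of-ratios scaling turned the list to 3 higher and 8 lower, and 2 higher and 3 lower remained on all 4 scales. The count called was 18 without MII replicate 1 and 2 to 6 without any other library.

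Genes that store maternal mRNA gave 8 rises and 1 fall among 16 tested (19 listed), with a median change of 0.85. Eif4e1b, the egg's own cap-binding protein, rose from 1.46, 0.695 and 1.23 FPKM at MII to 8.83, 9.76 and 10.3 FPKM at PN5 (log2 2.34, SE 0.19, adjusted p = 0.00051). Ybx2, which packages dormant mRNA, rose from 0.842, 0.878 and 0.452 FPKM at MII to 3.55, 5.65 and 3.23 FPKM at PN5 (change 1.56), Patl2, a repressor of translation in oocytes, from 3.66, 2.24 and 3.73 FPKM at MII to 10.1, 7.33 and 7.67 FPKM at PN5 (change 1.16), and Pabpc1l, an embryonic poly(A)-binding protein, from 2.02, 0.698 and 0.766 FPKM at MII to 5.79, 11.2 and 4.15 FPKM at PN5 (change 1.85). These 4 were named for the smallest p in the list, so their separate PN5 and MII libraries follow largely from that choice. On all 4 scales 5 rose and 1 fell. The other rise on all 4 scales was Igf2bp3, which binds and stabilises mRNA (12.4, 6.9 and 8.73 FPKM at MII and 19.4, 17.6 and 17.7 FPKM at PN5, change 0.93). The 1 fall was Dazl, a germ cell protein that promotes translation of stored mRNA (250, 273 and 299 FPKM at MII and 161, 176 and 189 FPKM at PN5, change -0.64). The count of 9 was 3 to 5 without MII replicate 3, PN5 replicate 1 or PN5 replicate 2, and 6 to 11 without any other library. In wild type the median change of the list was -0.37, beside -0.03 over all genes tested in both genotypes. Of the 16 tested members 2 were called for a difference between the genotypes, beside 7.45% of all genes tested for it. Calls of that test are unstable, as described below.

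Genes that clear maternal mRNA gave 5 rises and 2 falls among 22 tested (27 listed), with a median change of 0.31, and 1 rise and 3 falls after median-of-ratios scaling. Cnot6l, a deadenylase subunit needed for clearance in the maturing egg, fell from 54.2, 74.5 and 74.1 FPKM at MII to 21.1, 27.7 and 23.7 FPKM at PN5 (log2 -1.44, SE 0.19, adjusted p = 0.0018). Pabpn1l, a nuclear-type poly(A)-binding protein that works with BTG4, fell from 107, 200 and 110 FPKM at MII to 58.3, 45.6 and 47 FPKM at PN5 (log2 -1.39, SE 0.25, adjusted p = 0.0055). The wild-type changes were -0.98 for Cnot6l, which was not called, and -1.89 for Pabpn1l. Btg4 itself changed by -0.24 (adjusted p = 0.16), and by -0.55 after median-of-ratios scaling (adjusted p = 0.047). Dcp2, the decapping enzyme, rose from 9.93, 6.92 and 8.25 FPKM at MII to 15.4, 18.6 and 17.8 FPKM at PN5 (change 0.97). The count of 7 was 12 without MII replicate 1 and 3 or 4 without any other library.

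The subcortical maternal complex, a large assembly under the egg's membrane to which several NLRP proteins belong, gave 4 rises and 0 falls among 8 tested genes, with a median change of 0.83. Nlrp5, its best-known member MATER, rose from 39.8, 27.6 and 32.2 FPKM at MII to 59.7, 66.7 and 63 FPKM at PN5 (log2 0.92, SE 0.17, adjusted p = 0.0065). The other rises were Zbed3 (0.96), Padi6 (0.96) and Nlrp4f (0.80), of which Padi6 and Nlrp4f lost their call after median-of-ratios scaling. On that scale 2 rose and 1 fell, and on all 4 scales 1 rose. The count of 4 was 1 or 2 without any library other than MII replicate 1. Summed over the list on the deposited scale, the level was 1712 to 2904 FPKM at MII and 3492 to 3933 FPKM at PN5. In wild type the sums were 2510 to 2697 FPKM at MII and 1549 to 3446 FPKM at PN5. A sum follows the most abundant members, and these sums were not tested. The other oocyte NLRP genes gave 1 rise, Nlrp9b (0.85), among 8 tested genes, with a median change of 0.27. That call was lost after median-of-ratios scaling, which gave 2 falls, and in 5 of the 6 fits that left out 1 library, all but the one without MII replicate 1.

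Among 11 genes of the zona, of sperm binding and of oocyte secretion, 2 rose and 5 fell on both the deposited and the median-of-ratios scale, with a median change of -0.20. Izumo1r, the egg's receptor for the sperm protein IZUMO1 (JUNO), rose from 11.1, 13.1 and 11.9 FPKM at MII to 31, 34.9 and 30.7 FPKM at PN5 (log2 1.35, SE 0.16, adjusted p = 0.0012), and the wild-type change was 1.40. Astl, ovastacin of the cortical granules, which cleaves the zona after fertilisation, fell from 70.3, 34.8 and 38.1 FPKM at MII to 19.3, 15 and 16.9 FPKM at PN5 (log2 -1.37, SE 0.27, adjusted p = 0.0073), and in wild type by -3.36. Gdf9, the oocyte growth factor that acts on cumulus cells, fell from 3618, 2529 and 2926 FPKM at MII to 1872, 1247 and 1740 FPKM at PN5 (log2 -0.91, SE 0.20, adjusted p = 0.012). Oosp2, an oocyte-secreted protein, fell from 80.8, 143 and 121 FPKM at MII to 45.3, 59.1 and 33.2 FPKM at PN5 (change -1.30), while in wild type the change was 0.66. Oosp1 and Oosp3 changed by -0.93 and -0.79, and Oosp genes are near copies whose reads may be shared. Zp1 rose from 26.4, 30.6 and 17.9 FPKM at MII to 53, 47.4 and 54.3 FPKM at PN5 (change 1.05), whereas Zp2 stood at 28.6, 27 and 26.7 FPKM at MII and 24.4, 23.8 and 25.2 FPKM at PN5 and was not called. The list kept 5 to 7 calls without any one library.

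Pronuclear chromatin genes gave 5 rises and 3 falls among 27 tested (34 listed), with a median change of 0.17, and 2 rises and 5 falls after median-of-ratios scaling. Zfp57, the zinc finger protein that protects imprints, rose from 10.8, 7.75 and 7.71 FPKM at MII to 34.8, 37.5 and 57.4 FPKM at PN5 (log2 2.16, SE 0.23, adjusted p = 0.00091). Its wild-type change was 0.98, and the difference between the changes was not called. H1foo, the oocyte linker histone, fell from 3556, 3951 and 3855 FPKM at MII to 2248, 2046 and 2632 FPKM at PN5 (log2 -0.72, SE 0.14, adjusted p = 0.0069). Dppa3 (values above) had a lowest MII library close to its highest PN5 library, and its change of -0.53 did not pass (adjusted p = 0.077), while after median-of-ratios scaling it was -0.84 (adjusted p = 0.046). Genes of DNA replication gave 8 rises and 2 falls among 30 tested (32 listed), with a median change of 0.27, and 4 rises and 3 falls after that scaling. Mcm5, a subunit of the replicative helicase, rose from 1.68, 1.28 and 1.52 FPKM at MII to 8.11, 8.69 and 7.79 FPKM at PN5 (log2 1.89, SE 0.16, adjusted p = 0.00056), Mcm3 of the same complex from 2.26, 0.919 and 1.34 FPKM at MII to 4.76, 3.77 and 5.19 FPKM at PN5 (change 1.18), and Rpa2, which binds single-stranded DNA, by 1.30. Without MII replicate 1 the counts were 15 for chromatin and 17 for replication. Without any other library they were 3 to 5 and 2 to 5.

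Genes of minor activation and of the 2-cell stage were mostly below the level required for testing. Of 37 listed, 5 passed the filter and 3 rose, with a median change of 0.53, while median-of-ratios scaling left 1 rise and gave 2 falls. Arg2, the mitochondrial arginase, rose from 8.01, 22.3 and 18.7 FPKM at MII to 60.6, 75.4 and 49.1 FPKM at PN5 (log2 1.95, SE 0.34, adjusted p = 0.0051), while in wild type the mean went from 10 to 167 FPKM (log2 3.89, adjusted p = 0.00081). The other rises, AU022751 (0.74) and Sp110 (0.53), lost their call after median-of-ratios scaling. Among the genes not tested, Zscan4d stood at 0.16, 0.197 and 0.416 FPKM at MII and 0.579, 0.272 and 0.767 FPKM at PN5 and then at 515, 432 and 436 FPKM in knockout 2-cell embryos. Zfp352 was at 0 in all 3 PN5 libraries and at 97.6, 66.9 and 109 FPKM in 2-cell embryos. Usp17la and Trim43a stood at 0 in every MII and PN5 library, and at 25.2 to 40.7 and 28.1 to 75.2 FPKM in 2-cell embryos. Tcstv1 was measurable in eggs, with 22.7, 40.3 and 39.5 FPKM at MII and 14.5, 26.9 and 9.94 FPKM at PN5, and its change of -1.02 did not pass on the deposited scale (adjusted p = 0.057), while after median-of-ratios scaling it was -1.32 (adjusted p = 0.030). At this depth Zscan4d, Zfp352, Usp17la and Trim43a were undetected or at the level of a few fragments at PN5 in the knockout. Zscan4 and Tcstv genes have near-identical copies. The 3 rises of the list were 1 without MII replicate 3, PN5 replicate 1 or PN5 replicate 2, the last of which also gave 2 falls, and 2 rises and 1 fall with a replicate block.

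A separate search by level alone took transcripts under 0.5 FPKM in all 3 MII libraries and at 1 FPKM or more in all 3 PN5 libraries. It found 81 of the 55487 genes with deposited values, 68 of them protein coding, with a median PN5 mean of 1.48 FPKM and a highest mean of 3.41 FPKM. Ppp2r5d, a regulatory subunit of protein phosphatase PP2A, stood at 0.333, 0.293 and 0.42 FPKM at MII and 3.47, 3.02 and 2.63 FPKM at PN5, and Stx5a, a syntaxin of the Golgi, at 0.241, 0.243 and 0.227 FPKM at MII and 2.76, 3.99 and 2.03 FPKM at PN5. The reverse search found 8 genes, 6 of them coding, among them Kdm5a, a histone demethylase, at 1.4, 1.31 and 1.07 FPKM at MII and 0.0387, 0 and 0.0566 FPKM at PN5. These examples were named after their values were seen, and the search describes levels on the deposited scale without a test. On that scale the median change of all tested genes was 0.19, and its part in the unequal counts was not tested. Wild-type means at MII and PN5 were 0.69 and 1.61 FPKM for Ppp2r5d, 0.324 and 3.18 FPKM for Stx5a, and 0.521 and 0.486 FPKM for Kdm5a.

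Transcription factors linked to genome activation gave 8 rises and 5 falls among 17 tested (30 listed), with a median change of 0.40. After median-of-ratios scaling there were 5 rises and 5 falls, and on all 4 scales 3 rises and 5 falls. Nfyb, a subunit of the CCAAT-binding factor NF-Y, fell from 4.66, 8 and 6.06 FPKM at MII to 1.27, 0.928 and 1.57 FPKM at PN5 (log2 -1.66, SE 0.22, adjusted p = 0.0018). Obox7, of the oocyte homeobox family, fell from 327, 444 and 457 FPKM at MII to 169, 154 and 183 FPKM at PN5 (log2 -1.26, SE 0.17, adjusted p = 0.002), and the wild-type change was 0.17. Obox2 of the same family fell from 3977, 6244 and 5686 FPKM at MII to 2841, 2627 and 2873 FPKM at PN5 (change -0.91), and Obox genes may share reads with close copies. Dppa2, which opens chromatin at early embryonic genes, rose from 5.64, 4.91 and 4.56 FPKM at MII to 9.37, 13.1 and 11.1 FPKM at PN5 (change 1.01), and Ctcf, the insulator protein, from 9.81, 6.86 and 8.45 FPKM at MII to 15.9, 17.3 and 21.3 FPKM at PN5 (change 1.03). Pou5f1, OCT4, rose from 19.1, 19.3 and 15 FPKM at MII to 31.8, 41.2 and 33.5 FPKM at PN5 (change 0.95). Its call was lost after the length and GC trends were removed. The 3 rises on all 4 scales were Dppa2, Ctcf and Klf17, the last described at the end. The count of 13 was 6 or 7 without any library other than MII replicates 1 and 2.

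The machinery of RNA polymerase II gave 4 rises and 6 falls among 30 tested (31 listed), and the 6 falls held on all 4 scales. Besides Polr2d, Med21 of the Mediator complex fell from 49.4, 93.4 and 71.7 FPKM at MII to 18.1, 20.5 and 18.7 FPKM at PN5 (log2 -1.81, SE 0.23, adjusted p = 0.0016). Gtf2b, the initiation factor TFIIB, fell from 144, 256 and 197 FPKM at MII to 78.4, 86.8 and 59.9 FPKM at PN5 (log2 -1.37, SE 0.24, adjusted p = 0.0046), and Cdk7, the kinase of TFIIH, by -1.22. Gtf2f1, a subunit of TFIIF, rose from 6.87, 6.14 and 4.85 FPKM at MII to 11.4, 15.6 and 12.1 FPKM at PN5 (change 1.01). The median change was -0.01, median-of-ratios scaling gave 1 rise and 8 falls, and the count of 10 was 21 without MII replicate 1 and 5 to 7 without any other library.

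Genes of protein synthesis divided by group. Cytosolic ribosomal protein genes gave 1 rise and 8 falls among 31 tested of 79 listed, with a median change of -0.27, while the wild-type median was 0.47. The wild-type PN5 libraries had length slopes of -0.2, -0.1 and -0.01 beside 0.02 to 0.04 at wild-type MII. These slopes were taken relative to each gene's mean over the 6 knockout libraries. Their part in the wild-type median was not tested. All 8 falls held on all 4 scales. Rpl32, of the large subunit, fell from 15.2, 34.4 and 25.8 FPKM at MII to 7.14, 7.4 and 6.28 FPKM at PN5 (log2 -1.65, SE 0.28, adjusted p = 0.0041), and Rps14, of the small subunit, by -1.07. Many ribosomal protein genes have pseudogenes, so their values are uncertain. The count of 9 was 2 to 4 without any library other than MII replicate 1. Genes of ribosome biogenesis gave 10 rises and 4 falls among 29 tested (47 listed), with a median of 0.38, and 5 rises and 4 falls after median-of-ratios scaling. Noc4l, which acts in assembly of the small subunit, rose from 6.03, 3.77 and 3.95 FPKM at MII to 17.4, 15.3 and 14.9 FPKM at PN5 (log2 1.61, SE 0.20, adjusted p = 0.0016), whereas Npm1, nucleophosmin, fell from 251, 421 and 372 FPKM at MII to 168, 146 and 119 FPKM at PN5 (log2 -1.24, SE 0.22, adjusted p = 0.0053). That count of 14 was 5 to 9 without any library other than MII replicate 1. Cytosolic chaperones gave 7 rises and 0 falls among 16 tested (21 listed), with a median of 0.40, but 2 rises and 1 fall after median-of-ratios scaling. Dnajb1, a co-chaperone of HSP70, rose from 11, 7.44 and 8.88 FPKM at MII to 41, 48.9 and 38.3 FPKM at PN5 (log2 2.12, SE 0.19, adjusted p = 0.00061). Its wild-type change was 0.26, and the difference between the changes was not called. The inducible HSP70 genes Hspa1a and Hspa1b did not exceed 0.389 FPKM in any knockout library of either stage. The count of 7 was 2 or 3 without MII replicate 3 or any one PN5 library.

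Proteasome genes changed in both directions, with 11 rises and 5 falls among 29 tested (31 listed), a median of 0.38, and 6 rises and 9 falls after median-of-ratios scaling. The core subunit gene Psma1 fell from 62.2, 106 and 97 FPKM at MII to 24.4, 18.2 and 20.4 FPKM at PN5 (log2 -2.00, SE 0.23, adjusted p = 0.0011), and Psma2 by -1.21. Of the regulatory particle's ATPase ring, Psmc2, Psmc3 and Psmc5 rose, Psmc6 fell, and Psmc1 and Psmc4 were not called on both the deposited and the median-of-ratios scale. Psmc5 rose from 18.5, 17 and 15.4 FPKM at MII to 38.6, 44.5 and 41.7 FPKM at PN5 (log2 1.24, SE 0.16, adjusted p = 0.0015) and Psmc2 from 1.06, 0.407 and 0.914 FPKM at MII to 3.63, 6.32 and 3.33 FPKM at PN5 (change 1.58). Nuclear-encoded genes of oxidative phosphorylation gave 6 rises and 10 falls among 46 tested (62 listed), and 4 rises and 13 falls after that scaling. Their median was -0.16 beside 0.63 in wild type, where the median over all genes tested in both genotypes was -0.03. The part of the wild-type length slopes given above in the 0.63 was not tested. Atp5a1, the alpha subunit of ATP synthase, rose from 22.9, 17.2 and 18.9 FPKM at MII to 63.5, 64.4 and 50.5 FPKM at PN5 (log2 1.55, SE 0.18, adjusted p = 0.0012). Uqcrc2 of complex III fell from 53.7, 58.9 and 53 FPKM at MII to 24.3, 28.1 and 22.4 FPKM at PN5 (log2 -1.12, SE 0.16, adjusted p = 0.0021), Ndufs4 of complex I by -1.32 and Sdhc of complex II by -1.33. The 16 calls of each list were 8 to 12 for the proteasome and 7 to 14 for oxidative phosphorylation without any library other than MII replicate 1, and 24 and 20 without that library. Transcripts of the mitochondrial genome gave 1 fall, mt-Co3 (-0.49), among 13 genes, and 6 rises with 0 falls after the length and GC trends were removed.

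**Figure D4:**
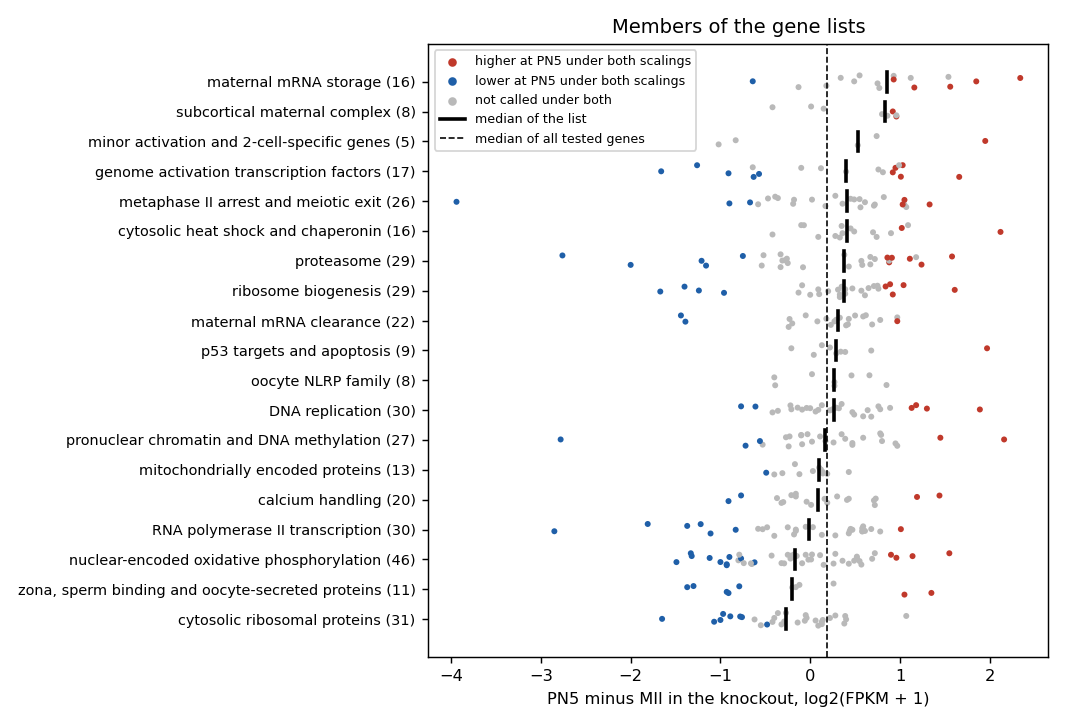
Change from MII to PN5 in the knockout (log2 difference of FPKM + 1) of every tested member of 19 gene lists, 1 point per gene, with the list median as a bar. Coloured points were called in the same direction as deposited and after median-of-ratios scaling, and numbers in brackets are tested members. The storage genes have a median of 0.85 and the cytosolic ribosomal proteins a median of -0.27, beside 0.19 for all tested genes.

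Calcium handling gave 4 rises and 2 falls among 20 tested genes (32 listed), with a median of 0.08, and 2 rises and 3 falls after median-of-ratios scaling. Orai1, a channel of store-operated calcium entry, rose from 0.693, 0.432 and 0.361 FPKM at MII to 3.3, 3.91 and 2.09 FPKM at PN5 (change 1.44). Vdac3, of the outer mitochondrial membrane, rose from 3.75, 4.92 and 4.54 FPKM at MII to 11.9, 15.2 and 7.84 FPKM at PN5 (change 1.19). The count of 6 was 10 without MII replicate 1 and 1 to 4 without any other library. Among p53 targets and apoptosis genes 2 of 9 tested rose (24 listed). Bcl2l1, an inhibitor of apoptosis, rose from 3.83, 0.945 and 1.25 FPKM at MII to 9.73, 10.7 and 9.11 FPKM at PN5 (log2 1.97, SE 0.32, adjusted p = 0.0038), with MII replicate 1 the highest of the eggs. Of 18 sperm markers 1 could be tested, Odf2 (0.74), whose call was lost on each of the other 3 scales. Of 15 markers of blood, stroma and oviduct 2 could be tested and 0 were called.

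The knockout change was set beside that of wild type, whose libraries are separate. In wild type 1335 of 9375 tested genes were called (14.2%), 919 higher (9.8%) and 416 lower (4.44%). Over the 8595 genes tested in both, the changes had a Pearson r of 0.24 across genes, which are not independent, and 46.9% had the same sign. The median change of these genes was 0.18 in the knockout and -0.03 in wild type. The part of that offset in the shares of equal sign was not tested. Of 696 genes called higher on all 4 scales in the knockout, 530 had a positive wild-type change (76.1%), with medians of 1.27 and 0.54. Of 780 called lower, 514 had a negative wild-type change (65.9%), with medians of -1.03 and -0.30. Genes called the same way in both genotypes numbered 586, which is 21.2% of the 2760 knockout calls and 48.8% of the 1202 wild-type calls among genes tested in both, and 9 genes were called in opposite directions. Among these, named after its values were seen, was Arhgap1, at 0.95 in the knockout and -1.52 in wild type. The wild-type count was 360 to 496 without any one wild-type MII library or without PN5 replicate 2, 1733 without PN5 replicate 1 and 2632 without PN5 replicate 3. Wild-type PN5 replicate 1 stood apart, with 20.1% of its summed FPKM in mitochondrial transcripts against 10.3 and 7.22% in the other libraries of its group. Its GC slope, taken relative to the mean over the 6 knockout libraries, was -0.38.

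**Figure D5:**
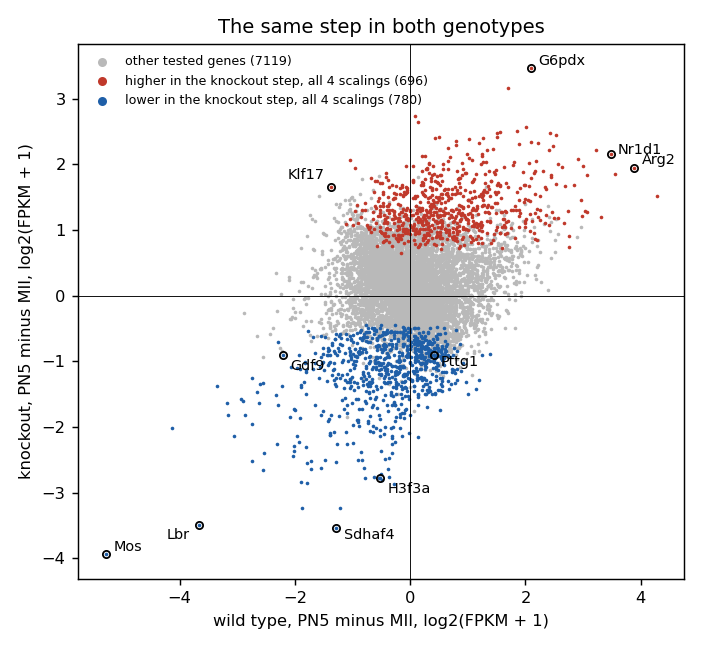
Change from MII to PN5 in wild type (horizontal axis) against the knockout (vertical axis), both as log2 differences of FPKM + 1, for 8595 genes tested in both, 1 point per gene. Coloured points were called on all 4 scales in the knockout. Mos and Lbr lie low and G6pdx and Nr1d1 high in both genotypes, while H3f3a lies low in the knockout and near 0 in wild type.

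The difference between the changes was tested in 1 fit of all 12 libraries, and 759 of 10190 genes were called (7.45%), 291 with a higher (2.86%) and 468 with a lower change in the knockout (4.59%). Arg2 rose less in the knockout than in wild type (difference -1.95, adjusted p = 0.045). H3f3a fell by -2.78 in the knockout and changed by -0.52 in wild type (difference -2.26, adjusted p = 0.045). Obox7 (difference -1.43) and Oosp2 (difference -1.96) were also lower. Among called genes the largest positive difference was that of Lpcat1, an enzyme of phosphatidylcholine remodelling, at 1.23 in the knockout, which was not called, and -1.74 in wild type. Srsf4, a splicing factor, changed by 0.90 and -1.79, and Prep, a prolyl peptidase, by 0.94 and -1.50. Vaultrc5, a vault RNA, changed by 1.51 and 4.28, and Lsm3, of the spliceosome's Sm-like ring, by -1.74 and 0.51. The differences are unstable, since each one named here lost its call in 9 or 10 of the 12 fits that left out 1 library. The count was 0 without any one wild-type MII library, KO MII replicate 3, WT PN5 replicate 2 or KO PN5 replicate 2 or 3, and 1, 3 and 50 without KO PN5 replicate 1, KO MII replicate 2 and WT PN5 replicate 1. Where it was 0, between 3082 and 3534 genes had an unadjusted limma p under 0.05. It was 2693 without KO MII replicate 1 and 4130 without WT PN5 replicate 3.

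Length, GC content and level of the genes called on all 4 scales are given as a description, since these enter the scales or the change itself. Those called higher had a median exon length of 2906 bases, a GC content of 51.4% and an MII level of 2.11 FPKM. Those called lower had medians of 2223 bases, 46.4% and 18.5 FPKM, and all tested genes 3184 bases, 48% and 4.01 FPKM. Median PN5 levels were 6.85 FPKM for the higher and 6.64 FPKM for the lower genes. Median 3' UTR length was 973, 724 and 1086 bases in the same order. The GC gap between higher and lower genes runs the same way as the GC slopes of the libraries, and its part in the calls left after the trends were removed was not tested.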

How the data were processed

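RNA of 5 eggs or zygotes per library was made into cDNA and sequenced, per the labels. The authors deposited FPKM values for 55487 Ensembl genes in 1 file per library. StringTie and GRCm38 are named in the submitters' processing notes, while versions, aligner, strand use and filters are not given in the sources used here. GENCODE M21 matched 55227 identifiers, and 260 stayed without a symbol.

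A minimum of 1 FPKM in 3 of the libraries fitted was required, and genes were tested with limma 3.58.1 in R 4.3.3 on log2(FPKM + 1), with trended, robust empirical Bayes variances and Benjamini-Hochberg adjustment over all tested genes at 0.05. The step was fitted on 6 libraries per genotype and the difference of steps on 12. Each fit was repeated after median-of-ratios scaling and after each library's lowess trend with exon length, or with length and GC content, was removed (span 0.3). The other settings were TPM, pseudocounts of 0.1 and 5, no filter, a mean of at least 5 FPKM, a replicate block, fits of more libraries and each library left out. The knockout fit was also run on simulated data with independent noise for each gene and library. Those data hold no shared length or GC trends, so they cannot show the effect of such trends on the calls.

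For genes with 1 transcript, low values came in whole multiples of 1 fragment for 98.79 to 99.13% of values (up to 30 fragments, tolerance 0.02), which gives the depth. Other genes gave no whole numbers, so count models were not applied. Arms of 3 libraries limit the precision.

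Named were the 12 genes with the largest rise and the 12 with the largest fall, if called, with separate groups and 5 FPKM in the higher group, the 6 largest differences of steps in each direction, and up to 4 members per list by smallest p. Predicted genes and pseudogenes were left out of the largest changes. The members and the 22 lists were chosen with earlier results of these data known, and genes outside the rule were chosen after their values were seen. A further gene that the rule names is not reported here. Promoters came from RefSeq. Tables were read with the data.table package (version 1.17.8), and figures drawn with Python 3.11.15, pandas 2.3.3, numpy 2.4.6 and matplotlib 3.10.9.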

Additional observations from a re-analysis of the deposited data

Results flagged for a closer look

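For the genes below the change from MII to PN5 differed between knockout and wild type in the test of that difference (limma, 12 libraries, adjusted p from 0.037 to 0.050). Values are the knockout change minus the wild-type change on the log2(FPKM + 1) scale. In 50 of them, the genes fitted under each setting, the call was lost in 9 or 10 of the 12 fits that left out 1 library, and in 2 to 7 of 11 other settings.

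Among histone and other nuclear or egg transcripts the difference was -2.26 for H3f3a, -2.03 for Hist1h2bc, -1.97 for Hist1h2bg, -1.48 for Dppa3, -1.43 for Obox7 and -1.31 for Pttg1. Of 30 genes of the RNA polymerase II list tested in the knockout step, 4 were called, beside 4.59% of all tested genes called lower. These gave -1.80 for Med21, -1.59 for Gtf2b, -1.43 for Polr2g and -1.28 for Polr2j. Polr1d, of polymerases I and III, gave -1.03.

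Of 46 genes of the oxidative phosphorylation list tested in the knockout step, 8 were called, beside 4.59% of all tested genes called lower. The other members did not pass. With the length trend removed, 46 genes of any kind were called instead of 759. The part of length in the differences listed here was not tested. The 8 genes gave -1.92 for Ndufb3, -1.78 for Cox5b, -1.62 for Cox6c, -1.58 for Cox7a2, -1.50 for Uqcrh, -1.23 for Ndufb6, -1.20 for Ndufb2 and -0.93 for Cox8a. The assembly factor Sdhaf4, outside the list, gave -2.26. Ribosome genes gave -1.49 for Rpl32, -1.47 for Rps15, -1.42 for Npm1, -1.35 for Rplp2, -1.32 for Rps14 and -0.94 for Rpl4. Of the proteasome, Psmb2 gave -1.75 and Psma1 -1.57. Calm2, calmodulin, gave -1.84, and Vdac2 -1.37.

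Other lower differences were -2.77 for Vaultrc5, -2.55 for Smap1, -2.47 for Pard3bos2, -2.28 for Iglv1, -2.26 for Lsm3, -1.96 for Oosp2, -1.95 for Arg2 and -1.37 for Ube2t. Pard3bos2 is an opposite-strand gene, so its reads cannot be told from those of its partner without strand information.

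Higher differences were led by Lpcat1 (2.96), Srsf4 (2.69), Dcbld2 (2.68), Atxn2l (2.67), Fam69b (2.62) and Prep (2.44). Regulators of stored mRNA were among them, with 2.37 for Igf2bp2 and 1.05 for Ythdf3. Astl (1.99) and Gdf9 (1.30), which fell in both genotypes, fell less in the knockout. Natd1 (1.93), the spindle checkpoint kinase gene Bub1b (1.86), Mcm3 (1.37), the chaperones Hsph1 (1.11) and Hspa4 (0.99) and the helicase gene Ddx10 (1.03) complete the set.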

How the results depend on the processing

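The number of genes called in the knockout step stayed within 1.5 times the 2951 reported after median-of-ratios scaling, TPM, either trend removal, either pseudocount, a simpler variance model and the fits of 12 and 24 libraries. It was 1583 with no filter and 1567 at a mean of at least 5 FPKM, and 1213 to 4398 with 1 library left out. The wild-type count of 1335 was 769 with TPM, 597 with no filter, 768 at that mean, and 360 to 2632 with 1 library left out. The 759 differences between genotypes became 4 with TPM, 46 without the length trend, 34 without the length and GC trends, 88 and 1297 with pseudocounts of 0.1 and 5, 13 with no filter, and 0 to 4130 with 1 library left out.

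A replicate block gave 2833 calls in the knockout, 1509 in wild type and 1595 for the difference between them. The numbers did not pair the knockout libraries: deviations of same-numbered MII and PN5 libraries correlated at -0.07, 0.06 and 0.08, and 1 of 3 correlated best with its own number. In wild type the values were 0.24, 0.06 and 0.24, and 3 of 3 did, which is a hint from the data and not the design.

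Of 131 named genes called in the knockout step, 77 were called in every setting that tested them, 47 lost the call when 1 library was left out and 31 on another scale. The sign reversed for 3 named genes that were not called. Fam69b (-0.27) ran from -0.50 to 0.03 with 1 library left out. Ddx10 (-0.09) was at 0.02 with TPM and ran from -0.25 to 0.00 with 1 library left out. Cd68 (0.12) was at -0.07 after median-of-ratios scaling, -0.08 without the length and GC trends, and -0.10 to 0.24 with 1 library left out. Levels under 3 fragments, about 0.3 FPKM in 1 kb, cannot be resolved, and a count that changes when a library is left out was tested with 2 libraries in that arm, assumed to vary like the rest. The cause of these shifts was not tested.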

Other observations

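Some transcripts outside the description above were called in the knockout step. Klf17, a zygotic Kruppel-like factor, stood at 216, 50.3 and 96 FPKM at MII and 307, 321 and 345 FPKM at PN5 (log2 1.66, SE 0.44, adjusted p = 0.022), while the wild-type mean went from 261 to 146 FPKM (log2 -1.37, adjusted p = 0.24). The difference between these changes was not called. The knockout call of Klf17 was lost in 4 of the 6 fits that left out 1 knockout library. Tbpl2, the oocyte relative of the TATA-binding protein, stood at 19.6, 32.8 and 25.2 FPKM at MII and 13.8, 13.9 and 13.7 FPKM at PN5 (change -0.83), and lost its call in 4 of those 6 fits. Kdm4a, a histone demethylase of the egg, stood at 12.2, 2.6 and 4.82 FPKM at MII and 17.6, 15.1 and 17.8 FPKM at PN5 (change 1.45), and lost its call in 5 of those 6 fits and after the length and GC trends were removed.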
